A study of Homo sapiens with 12 samples.

Results

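The genes described here are 30 human genes of cholesterol and fatty acid synthesis, found by symbol among the 59050 genes counted. They were chosen by function. Of these, 20 belong to the sterol branch, which is mainly under the transcription factor SREBP2 (gene SREBF2), and 10 belong to the fatty acid branch, which is mainly under SREBP1 (gene SREBF1). All 30 were present and passed the filter on low counts in each of the 4 comparisons made. Their messenger RNA was measured in H1299 (NCI-H1299) and A549, both human lung cancer lines, either wild type (WT) or lacking PA200 after CRISPR/Cas9 editing (KO). PA200, encoded by PSME4, is a nuclear protein that caps the 20S proteasome. There were 3 libraries in each of the groups H1299 KO, H1299 WT, A549 KO and A549 WT, and cells of every group had been cultured for 48 h with no treatment named in the labels. Whether libraries of 1 group stem from different clones, or from parallel dishes of a single clone, is not stated, so each p-value measures the spread between these libraries, which may be technical.

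Cholesterol is built from acetyl-CoA through mevalonate, farnesyl diphosphate, squalene and lanosterol. Saturated fatty acids are built from malonyl-CoA by fatty acid synthase and are then elongated and desaturated. SREBP2 and SREBP1 are made as membrane precursors in the endoplasmic reticulum. When sterols are low, SCAP escorts them to the Golgi, where site-1 and site-2 proteases release the active factor, and INSIG1 retains SCAP when sterols are high. SREBPs act together with NF-Y, a factor that binds CCAAT boxes. Tumour cells are known for high lipid synthesis. Messenger RNA levels do not report the cleavage of the SREBP precursors.

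Total counts ranged from 16599401 to 40983933 per library, and each of the A549 KO libraries was deeper than each of the A549 WT libraries. PSME4 was at 51.8 ± 2.30 CPM (counts scaled to the TMM-adjusted library size, mean ± SD, n = 3) in H1299 KO and 239 ± 20.1 in H1299 WT, and at 20.6 ± 3.25 in A549 KO and 178 ± 31.0 in A549 WT. By edgeR's quasi-likelihood test the log2 fold change of PSME4 was -2.20 in H1299 (SE 0.08, adjusted p = 7.35e-06) and -3.13 in A549 (SE 0.19, adjusted p = 0.00109). Of 5 epithelial keratin and adhesion markers, 5 exceeded 1 CPM in both A549 groups and 2 did so in both H1299 groups, where KRT7, EPCAM and CDH1 were near 0. The lung lineage markers NKX2-1, SFTPB and SFTPC were near 0 in all 4 groups, and the adipocyte marker ADIPOQ had no count in any group. The leukocyte markers were split. PTPRC had no count in any group and LYZ was near 0. CD68 was at 66.7 CPM in H1299 KO, 74.6 in H1299 WT, 18.4 in A549 KO and 21 in A549 WT. In bulk RNA, fewer cells with a transcript and less transcript per cell cannot be told apart.

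The promoters of these genes are shown because the branches are grouped by the factors that bind there. RefSeq (GRCh38.p14) promoter windows, from 250 bases before to 50 after a transcription start, were matched by symbol for 27 of the 30 genes, in 37 windows. FASN, FDFT1 and SQLE were not matched. Both strands were searched for CCAAT (the NF-Y box), for TCACNCCAC (a form of the sterol element) and for CACGTG (an E-box), none of which contains another. CCAAT was found for 16 of 18 matched sterol genes and 6 of 9 matched fatty acid genes, against 39.7% of the 27305 genes in the table. TCACNCCAC occurred for SREBF2 alone among the members, against 1.39% of all genes. CACGTG occurred for INSIG1, LSS, SC5D and ELOVL5, against 8.77% of all genes. A match is a description of letters and not a binding site, and these forms miss many variants of the sterol element. The 250 bases before the start follow for the 3 regulators and for the genes whose level differed between H1299 KO and H1299 WT and that hold a motif. Capitals mark the motif letters, where ATTGG is CCAAT read on the other strand.
SREBF1 (chr17:17836987-17837236, minus strand, no match): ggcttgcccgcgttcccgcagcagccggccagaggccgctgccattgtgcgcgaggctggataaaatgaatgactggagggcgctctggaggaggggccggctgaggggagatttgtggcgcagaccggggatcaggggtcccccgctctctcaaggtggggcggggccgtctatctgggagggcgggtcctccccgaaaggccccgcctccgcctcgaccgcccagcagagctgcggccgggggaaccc
SREBF2 (chr22:41832855-41833104, plus strand): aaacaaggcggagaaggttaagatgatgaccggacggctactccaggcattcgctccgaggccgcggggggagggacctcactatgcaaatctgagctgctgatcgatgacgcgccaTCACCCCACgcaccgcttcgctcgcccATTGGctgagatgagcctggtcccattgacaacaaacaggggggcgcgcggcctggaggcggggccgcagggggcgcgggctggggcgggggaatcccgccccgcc
INSIG1 (chr7:155297628-155297877, plus strand): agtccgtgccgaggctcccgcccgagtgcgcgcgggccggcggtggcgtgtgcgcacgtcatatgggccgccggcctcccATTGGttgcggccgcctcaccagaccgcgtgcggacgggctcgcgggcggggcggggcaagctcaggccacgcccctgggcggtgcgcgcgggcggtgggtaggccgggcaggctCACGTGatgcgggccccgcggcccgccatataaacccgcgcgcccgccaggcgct
MSMO1 (chr4:165327419-165327668, plus strand): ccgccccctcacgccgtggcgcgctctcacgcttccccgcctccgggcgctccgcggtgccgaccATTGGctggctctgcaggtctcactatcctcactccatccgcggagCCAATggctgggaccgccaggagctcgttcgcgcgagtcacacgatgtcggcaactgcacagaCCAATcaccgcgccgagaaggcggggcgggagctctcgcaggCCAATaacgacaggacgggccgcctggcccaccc
MVD (chr16:88663092-88663341, minus strand): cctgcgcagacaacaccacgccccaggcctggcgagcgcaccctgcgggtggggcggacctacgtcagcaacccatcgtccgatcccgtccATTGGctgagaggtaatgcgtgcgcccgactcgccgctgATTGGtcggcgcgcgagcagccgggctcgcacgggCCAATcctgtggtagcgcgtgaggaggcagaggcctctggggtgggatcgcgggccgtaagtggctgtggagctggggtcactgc
ACSS2 (chr20:34874739-34874988, plus strand): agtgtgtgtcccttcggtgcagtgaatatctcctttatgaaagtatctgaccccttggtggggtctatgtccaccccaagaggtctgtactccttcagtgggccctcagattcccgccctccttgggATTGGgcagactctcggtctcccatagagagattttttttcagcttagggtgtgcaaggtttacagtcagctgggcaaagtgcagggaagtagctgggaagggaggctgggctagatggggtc
The windows of MSMO1 and MVD hold several CCAAT boxes, that of ACSS2 holds 1, and that of SREBF1 holds none. The ACSS2 window lies inside the gene, which starts at base 34872146, so it precedes an internal start. For the called genes, windows without a motif are not shown. ELOVL6 and AACS, described next to them below, had none of the 3 motifs in their matched windows.

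Loss of PA200 in H1299 went with small changes in 5 of the 30 genes, in both directions and in both branches. ELOVL6, which elongates palmitate to stearate, rose 1.76-fold, MSMO1, a sterol C4-methyl oxidase, rose 1.55-fold, and SQLE, squalene monooxygenase, rose 1.43-fold. MVD, which makes isopentenyl diphosphate, fell to 0.747 of the WT level, and ACSS2, which makes acetyl-CoA out of acetate, fell to 0.789 of it. By branch, 2 of 20 sterol genes rose and 1 fell, and 1 of 10 fatty acid genes rose and 1 fell. Over all 20194 genes tested in this line, 8.84% passed the same test, 4.66% higher and 4.18% lower. At an unadjusted p under 0.05 there were 15 of the 30, against 25.1% of all genes. The libraries of the 2 genotypes did not overlap for 14 of the 30 genes, against 30.1% of all genes tested. A call here means a Benjamini-Hochberg adjusted p under 0.05 over all genes tested, by edgeR's quasi-likelihood test.

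**Figure D1:**
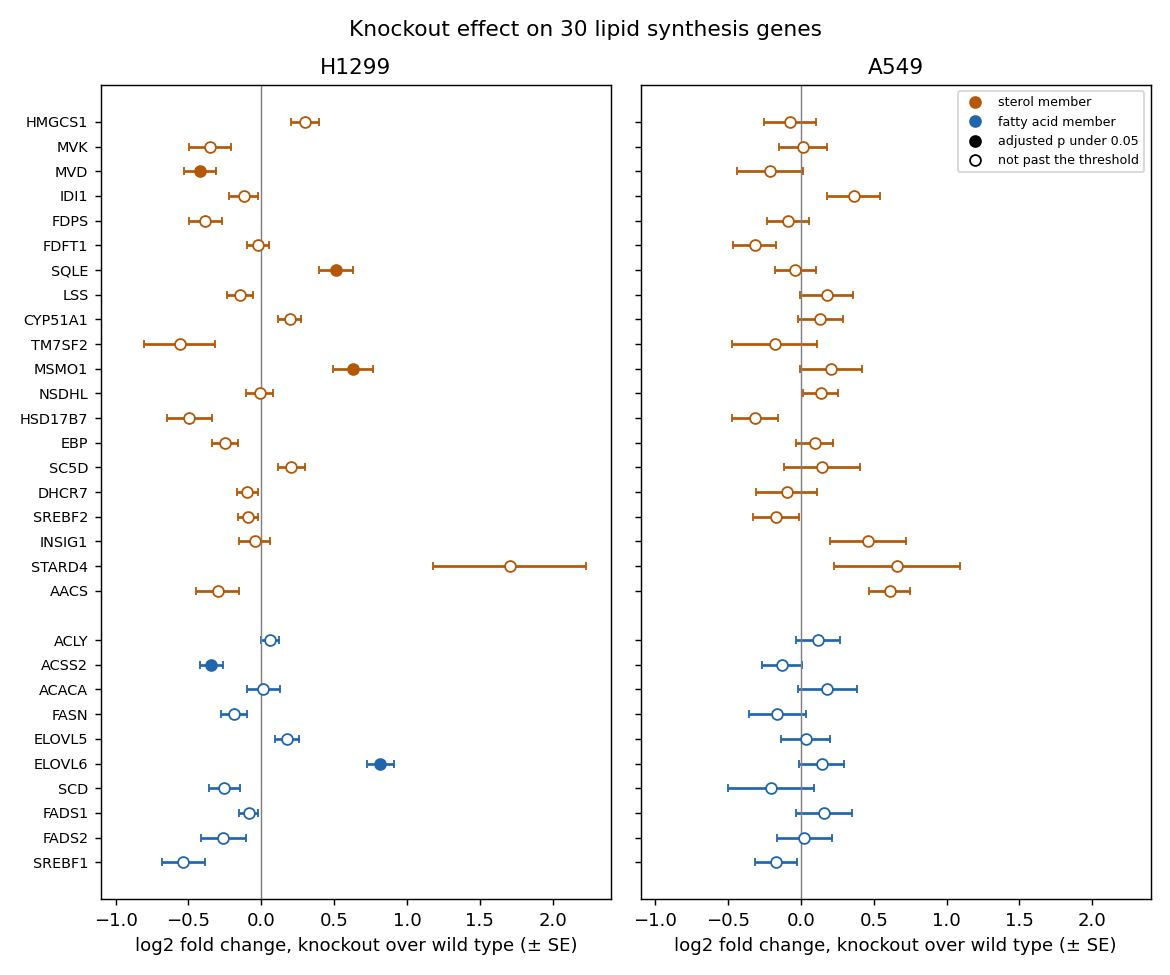
Log2 fold change of each of the 30 genes, KO over WT, with its standard error, in H1299 (left) and A549 (right), with 20 sterol genes above and 10 fatty acid genes below. Filled points passed an adjusted p of 0.05: 5 genes in H1299, with ELOVL6 the highest of them at 0.82, and 0 genes in A549.

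ELOVL6 had 80.2, 67.1 and 69.7 CPM in H1299 KO, against 41.8, 37.9 and 43.7 CPM in H1299 WT. The genotypes were well apart, with the lowest KO library above the highest WT library. On the log2 scale ELOVL6 rose by 0.82 (SE 0.09, edgeR adjusted p = 0.00266). ELOVL6 lies on the minus strand of chromosome 4, at chr4:110045846-110199199 (GRCh38, GENCODE 29). It passed the test in 15 of 15 alternative analyses, including each of the 6 that left out 1 library, with log2 fold changes between 0.41 and 0.87 and adjusted p between 1.49e-11 and 0.0479.

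MSMO1 had 28.1, 33.5 and 28.8 CPM in H1299 KO, against 23.5, 16.2 and 18.7 CPM in H1299 WT. The groups did not overlap, and the first WT library came closest to the KO libraries. On the log2 scale MSMO1 rose by 0.63 (SE 0.14, edgeR adjusted p = 0.0238). MSMO1 lies at chr4:165327623-165343160 on the plus strand.

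SQLE had 73.4, 92.6 and 85.2 CPM in H1299 KO, against 53.3, 68.5 and 54.0 CPM in H1299 WT. The second WT library was the highest of its group and lay just under the lowest KO library. On the log2 scale SQLE rose by 0.51 (SE 0.12, edgeR adjusted p = 0.0285). SQLE acts directly before LSS, lanosterol synthase, which had a log2 fold change of -0.14 (adjusted p = 0.349), and directly after FDFT1, squalene synthase, with -0.02 (adjusted p = 0.886).

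MVD had 11.5, 9.57 and 10.6 CPM in H1299 KO, against 14.2, 13.9 and 14.4 CPM in H1299 WT. Its WT libraries were nearly equal and all KO libraries lay below them. MVD had a log2 fold change of -0.42 (SE 0.11, edgeR adjusted p = 0.0413). MVD lies at chr16:88651935-88663161 on the minus strand.

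ACSS2 had 31.3, 35.1 and 34.3 CPM in H1299 KO, against 45.5, 41.0 and 41.2 CPM in H1299 WT. Again the groups did not overlap. ACSS2 had a log2 fold change of -0.34 (SE 0.08, edgeR adjusted p = 0.0309). ACSS2 lies at chr20:34872146-34927962 on the plus strand.

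**Figure D2:**
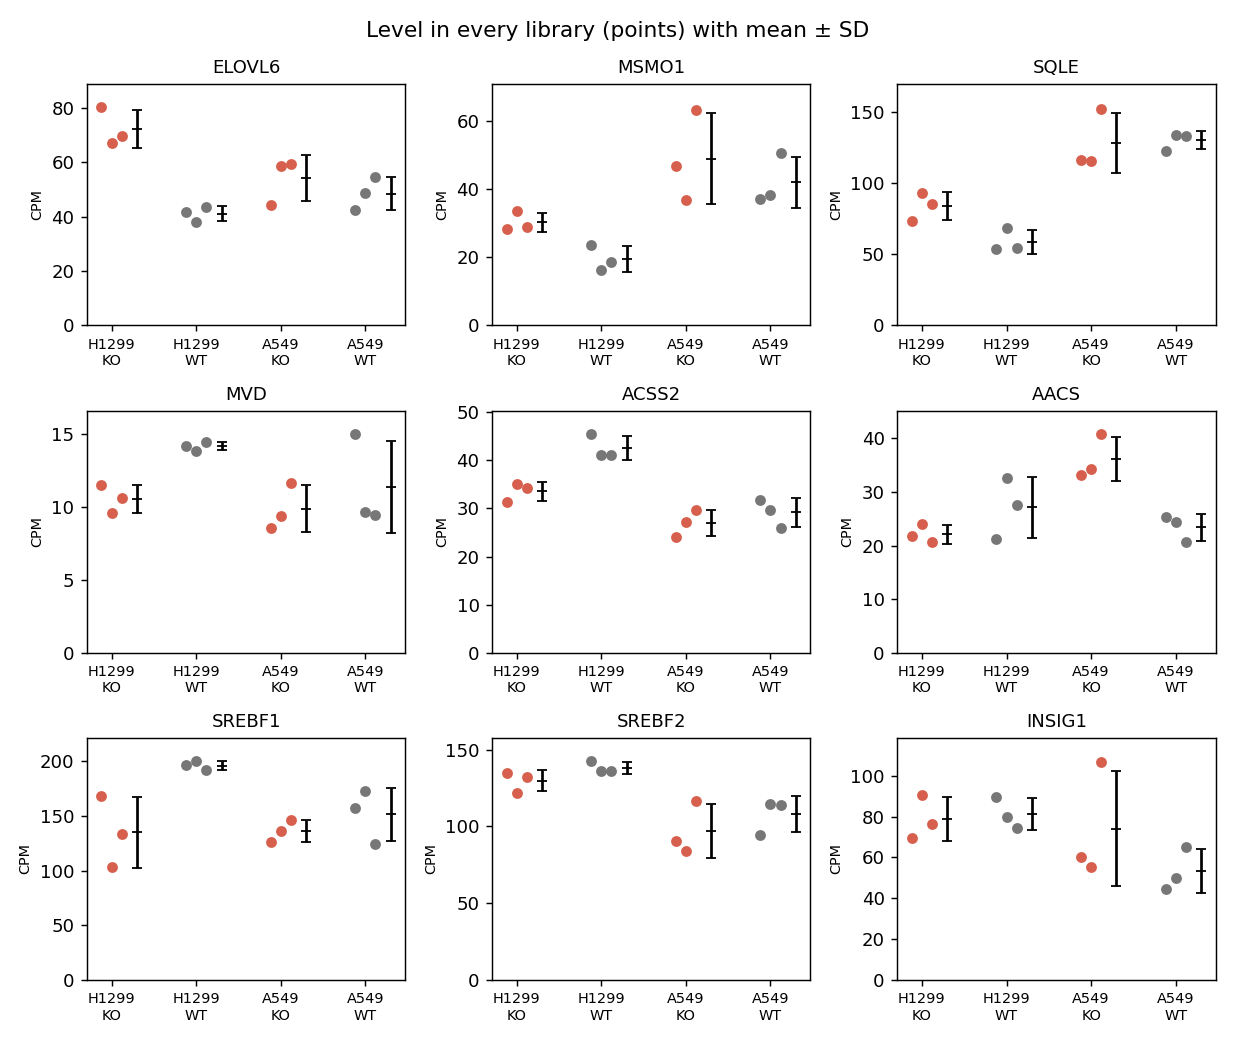
Level in CPM of 9 genes in each library (points, red for KO and grey for WT) with the mean and SD beside them (n = 3), in the order H1299 KO, H1299 WT, A549 KO and A549 WT. ELOVL6 in H1299 sits between 67.1 and 80.2 in KO and between 37.9 and 43.7 in WT, whereas AACS is higher in KO than in WT in A549 only, at 33.3 to 40.8 against 20.6 to 25.4.

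The 3 genes that rose in H1299 KO all lie on chromosome arms whose expressed genes were, as a group, higher in that comparison. On 4q, where ELOVL6 and MSMO1 lie, the median log2 fold change of 334 expressed genes was 0.41 and 91.9% of them were above 0. On 8q, which holds SQLE, the median of 331 genes was 0.26 and 78.5% were above 0. MVD lies on 16q, with a median of -0.17, and ACSS2 on 20q, with -0.07. When each library was centred within each arm, ELOVL6 remained past the threshold at 0.41 (adjusted p = 0.0479, edgeR). ELOVL5, another elongase, then passed it at 0.22 (adjusted p = 0.0492, edgeR). Without centring ELOVL5 stood at 0.18 (adjusted p = 0.209), and its adjusted p ran between 0.0492 and 0.599 over its alternatives.

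The other 4 genes missed the threshold after that centring. MSMO1 then stood at 0.23 (adjusted p = 0.257), SQLE at 0.26 (0.167), MVD at -0.27 (0.204) and ACSS2 at -0.27 (0.118). Their adjusted p over 15 alternatives ran between 6.18e-05 and 0.257 for MSMO1, 7.65e-05 and 0.167 for SQLE, 0.0159 and 0.275 for MVD, and 0.00821 and 0.138 for ACSS2. The part that the arms play in these differences was not tested further. A joint correction for GC content and length ended 2 of the calls, and which of these properties did so was not tested. After it MVD, whose longest transcript is 63.7% GC, stood at -0.25 (adjusted p = 0.150) and ACSS2, at 54.6% GC, at -0.28 (0.0716), while SQLE and MSMO1 stayed past the threshold. HSD17B7, not called without this correction in the same fit, passed the threshold after it at -0.585 (0.0404).

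Single libraries decided several of these calls. With 1 library left out, SQLE was past the threshold in 2 of 6 fits, being lost without WT 1, WT 3, KO 2 or KO 3. MSMO1 was past it in 3 of 6, being lost without WT 3, KO 2 or KO 3. MVD was past it in 1 of 6, the fit without KO 1, and ACSS2 in 1 of 6, the fit without WT 2. These fits have fewer samples, and all kept the direction of the change.

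**Figure D3:**
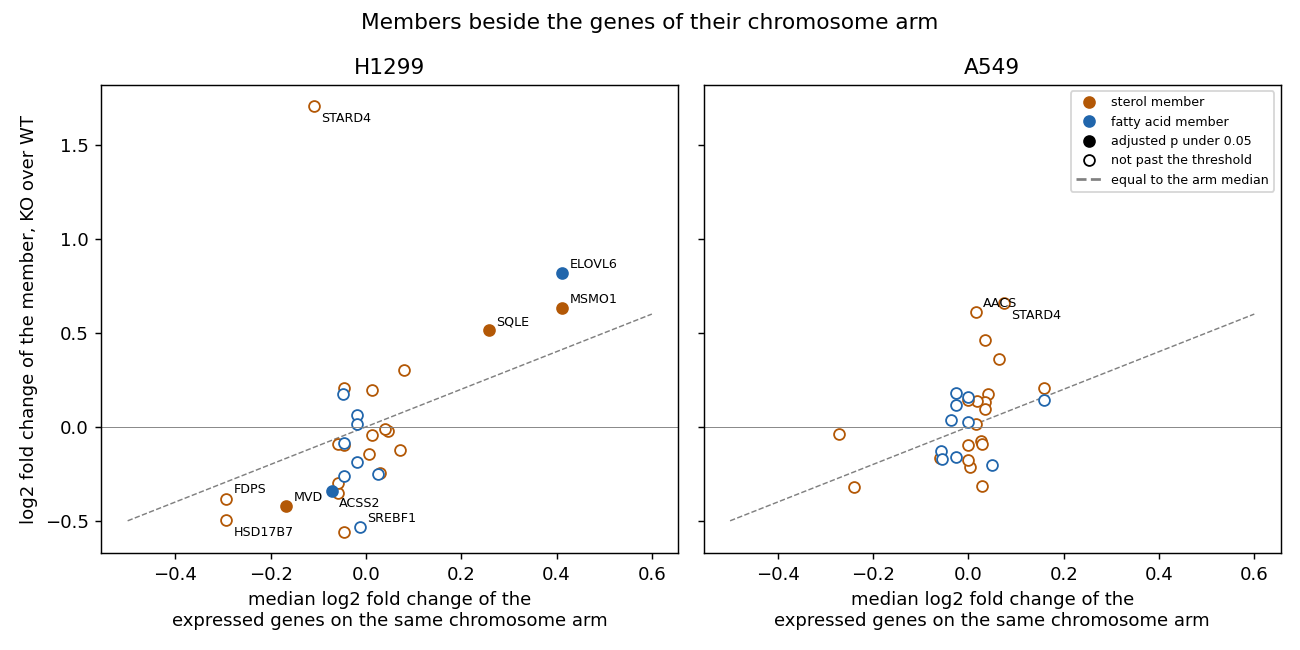
Log2 fold change of each of the 30 genes (vertical axis) against the median log2 fold change of the expressed genes on its own chromosome arm (horizontal axis), in H1299 (left) and A549 (right). In H1299, ELOVL6 and MSMO1 lie over an arm median of 0.41 and SQLE over 0.26, while FDPS and HSD17B7 lie over -0.29.

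The regulators SREBF1, SREBF2 and INSIG1 showed no call in the edgeR fit of H1299. Other genes of SREBP control were called in that fit and are described below. SREBF1 had 169, 103 and 133 CPM in H1299 KO, against 197, 200 and 192 CPM in H1299 WT. All KO libraries lay below the WT libraries but were spread widely. SREBF1 thus had a log2 fold change of -0.54 (SE 0.15) and missed the threshold (edgeR adjusted p = 0.0555). It passed in 5 of 15 alternatives, among them DESeq2 (adjusted p = 0.00274) and the fit without KO 1 (-0.73, 0.0131), with adjusted p between 2.07e-05 and 0.158. SREBF2 had 135, 122 and 132 CPM in H1299 KO, against 143, 136 and 136 CPM in H1299 WT. The groups did not overlap but were close. SREBF2 stood at -0.09 (SE 0.07, adjusted p = 0.458), which turned to 0.03 after correction for GC content and length. INSIG1, the sterol-sensitive anchor and itself an SREBP target, had 69.4, 90.8 and 76.4 CPM in H1299 KO, against 89.9, 79.7 and 74.5 CPM in H1299 WT. These libraries overlapped. INSIG1 stood at -0.04 (SE 0.11, adjusted p = 0.839), with its sign turned to 0.02 without WT 1 and to 0.04 without KO 1.

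Along the mevalonate steps in H1299, 4 of 5 log2 fold changes were below 0, with MVD called. HMGCS1, which makes HMG-CoA, was the exception at 0.30 (adjusted p = 0.0805), with 52.4, 60.5 and 52.2 CPM in KO against 49.8, 42.5 and 41.8 CPM in WT. FDPS, farnesyl diphosphate synthase, stood at -0.38 (adjusted p = 0.0661), MVK, mevalonate kinase, at -0.35 (0.160) and IDI1, the isopentenyl diphosphate isomerase, at -0.12 (0.5). FDPS lies on 1q, where the median of 592 genes was -0.29, and stood at -0.08 after centring within arms. It was called in 3 of 15 alternatives, among them DESeq2 (adjusted p = 0.0138).

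The late sterol steps, lanosterol to cholesterol, also pointed both ways in H1299, with MSMO1 called and 5 of 8 log2 fold changes below 0. HSD17B7, the 3-ketosteroid reductase of this route, lies on the same arm as FDPS and stood at -0.50 (adjusted p = 0.0796). It was called in 4 of 15 alternatives, among them DESeq2 (adjusted p = 0.036), and stood at -0.20 after centring within arms (0.453). TM7SF2, a sterol C14-reductase, was at -0.56 with an SE of 0.24 (0.189) and EBP, the sterol isomerase, at -0.25 (0.124). CYP51A1, lanosterol demethylase, was at 0.19 (0.172) and SC5D, a sterol desaturase, at 0.21 (0.207), while DHCR7, the last reductase, and NSDHL, a C4-decarboxylase, were at -0.10 (0.440) and -0.01 (0.956).

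STARD4, a cytosolic sterol carrier, had the largest log2 fold change of the 30 in H1299, 1.71, with an SE of 0.52 that kept it from a call (adjusted p = 0.0769). It had 12.1, 16.4 and 6.65 CPM in H1299 KO, against 5.89, 3.87 and 0.712 CPM in H1299 WT. The groups were apart, but the third WT library was several times lower than the others of its group and the lowest KO library was close to the highest WT library.

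Within the fatty acid branch in H1299, the genes of chain building varied little. ACLY, which cleaves citrate to acetyl-CoA, was at 0.06 (adjusted p = 0.574), ACACA, acetyl-CoA carboxylase, at 0.01 (0.956) and FASN, fatty acid synthase, at -0.19 (0.227). SCD, which desaturates stearoyl-CoA, was at -0.25 (0.182), and the polyunsaturated fatty acid desaturases FADS1 and FADS2 at -0.09 (0.458) and -0.26 (0.334). ELOVL5 was at 0.18 (0.209), and SREBF1 is described above with the regulators. By the edgeR fit of this line ELOVL6 was the 1 gene of the 10 that rose and ACSS2 the 1 that fell, while SREBF1 was called lower in 5 of 15 alternatives and, after centring within arms, ELOVL5 was called and ACSS2 was not.

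In A549, none of the 30 genes passed the test, against 2.14% of 20093 genes tested (0.99% higher, 1.15% lower). At an unadjusted p under 0.05 there was 1 of the 30 (19.1% of all genes), AACS. At the adjusted threshold DESeq2 called AACS alone (adjusted p = 0.00414), against 7.99% of all genes, and limma-voom called 0, against 1.46%. Log2 fold changes ran between -0.32 and 0.66, with 17 above 0 and 13 below. The libraries were apart for 2 genes, AACS and HSD17B7, against 25.5% of all genes.

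AACS, the cytosolic acetoacetyl-CoA synthetase that feeds acetoacetate into lipid synthesis, had 33.3, 34.4 and 40.8 CPM in A549 KO, against 25.4, 24.3 and 20.6 CPM in A549 WT. Every A549 KO library lay above every A549 WT library. AACS stood at 0.61 (SE 0.14) on the log2 scale, and its adjusted p of 0.0638 missed the threshold in the edgeR fit of this line. HSD17B7 had 13.4, 13 and 15.2 CPM in A549 KO, against 16.2, 15.6 and 19.5 CPM in A549 WT, with a log2 fold change of -0.32 (adjusted p = 0.321).

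The 5 genes called in H1299 had smaller values in A549. ELOVL6 stood at 0.14 (SE 0.16, adjusted p = 0.668), with 44.3, 58.7 and 59.4 CPM in A549 KO against 42.3, 48.7 and 54.5 CPM in A549 WT. MSMO1 was at 0.21 (0.644), with 46.8, 36.7 and 63.2 CPM in A549 KO and 36.9, 38.3 and 50.5 CPM in A549 WT. SQLE was at -0.04 (0.914), with 116, 116 and 152 CPM in KO and 123, 134 and 133 CPM in WT. All 3 overlapped between the genotypes, and the 8q arm that carries SQLE had a median of -0.27 in this line.

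MVD in A549 had 8.55, 9.36 and 11.7 CPM in KO and 15.0, 9.63 and 9.41 CPM in WT (log2 fold change -0.21, adjusted p = 0.653). ACSS2 had 24.1, 27.2 and 29.6 CPM in KO and 31.9, 29.7 and 26.0 CPM in WT (-0.13, 0.654). Both overlapped between the genotypes, and the first WT library was the highest of the 6 for each.

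A549 KO replicate 3 had the highest median level over the sterol genes of the 6 A549 libraries. INSIG1 had 60.5, 55.4 and 107 CPM in A549 KO, against 44.7, 49.9 and 65.3 CPM in A549 WT, and the third KO library was well above the other KO libraries. Its log2 fold change was 0.46 (SE 0.26, adjusted p = 0.387). SREBF2 had 90.6, 83.6 and 117 CPM in A549 KO and 94.3, 115 and 114 CPM in A549 WT (log2 fold change -0.17, adjusted p = 0.609). SREBF1 had 126, 136 and 146 CPM in A549 KO and 157, 173 and 124 CPM in A549 WT (-0.17, 0.567). Neither regulator separated the genotypes in A549.

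Whether the KO effect differed between the lines was tested over all 12 libraries as the H1299 effect minus the A549 effect. AACS was the 1 gene of the 30 called, on the lower side, and 3.48% of 22635 genes tested were called, 1.97% higher and 1.52% lower. At an unadjusted p under 0.05 there were 5 of the 30, against 18.3% of all genes. In H1299 AACS had 21.7, 24 and 20.6 CPM in KO, against 21.3, 32.6 and 27.6 CPM in WT, which overlapped. Its H1299 effect was -0.30 (SE 0.15, adjusted p = 0.25) and its A549 effect 0.61, and the difference was -0.93 on the log2 scale (SE 0.22, adjusted p = 0.0346, edgeR).

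The call on AACS was close to the threshold. It stood in 11 of 20 alternatives, with adjusted p between 0.00249 and 0.0952, and its value ran between -1.07 and -0.77. It was lost after centring within arms (-0.82, adjusted p = 0.0567) and in 8 of 12 fits with 1 library left out, and it was kept without A549 WT 1, A549 WT 3, A549 KO 1 or H1299 WT 1. For ELOVL6 the difference was 0.66 (SE 0.19, adjusted p = 0.0779), so an effect confined to H1299 was not shown by this test. It was called in 3 of 20 alternatives, with DESeq2 (adjusted p = 0.0249), after GC and length correction (0.0418) and without A549 WT 1, with adjusted p between 0.0249 and 0.295. SQLE, at 0.54 (0.153), MSMO1, at 0.41 (0.486), MVD, at -0.23 (0.712), and ACSS2, at -0.23 (0.491), were not called either.

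Sterol and fatty acid genes were set side by side by their medians, which carry no test. In H1299 the median log2 fold change was -0.09 over the 20 sterol genes and -0.14 over the 10 fatty acid genes, against -0.0034 over all genes tested. In A549 it was 0.06 over the sterol genes and 0.03 over the fatty acid genes, against -0.007 over all genes. For the difference between lines it was -0.18 and -0.13, against -0.013. In these comparisons the branches lay closer to each other than the SD of 0.144 (sterol) or 0.142 (fatty acid) between libraries of a group. Between the wild types, as H1299 minus A549, the medians were -0.16 (sterol) and -0.35 (fatty acid), against -0.0171 over all genes. They lay further apart than either SD, but that SD does not measure the spread between genes. Values ran from -2.38 to 1.57 in the sterol branch and from -5.11 to 0.83 in the fatty acid branch. The fatty acid median also moved by more than its SD without A549 WT replicate 1 or 3, so no difference between the branches is read from it.

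Each library's median over either branch was also set against the line's mean. The median deviation of the sterol genes from their mean in the line was -0.02, 0.01 and -0.03 in H1299 KO and 0.09, 0.02 and -0.01 in H1299 WT, and that of the fatty acid genes was 0.03, -0.04 and -0.04 in H1299 KO and 0.03, 0.10 and 0.07 in H1299 WT. In A549 the sterol medians were -0.06, -0.15 and 0.27 in KO and -0.09, -0.13 and 0.10 in WT. The fatty acid medians were -0.17, -0.07 and 0.23 in A549 KO and -0.25, 0.06 and 0.14 in A549 WT. The third library of each A549 genotype was the highest of its group for both branches. Replicate numbers here follow the order of the samples, and the labels pair no libraries across groups. Without A549 KO replicate 3 the A549 medians were -0.04 (sterol) and -0.12 (fatty acid), both below 0.

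**Figure D4:**
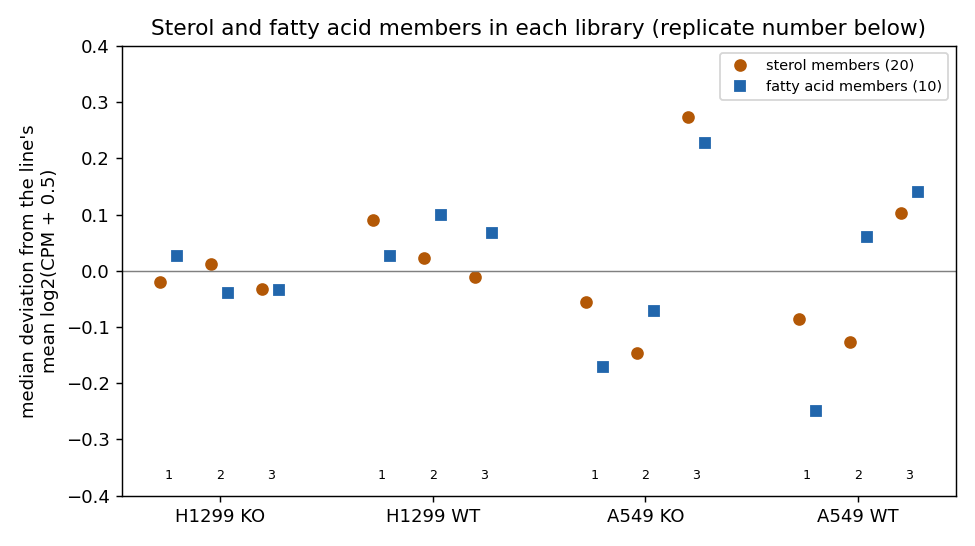
Median deviation of the 20 sterol genes (circles) and the 10 fatty acid genes (squares) from each gene's mean log2(CPM + 0.5) over the 6 libraries of its line, for each library, with the replicate number below. The H1299 libraries all lie within 0.1 of 0, while the third A549 KO library is at 0.27 and 0.23 and the first A549 WT library at -0.09 and -0.25.

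More of these genes were called between the lines than between the genotypes of a line, and the same held for all genes tested. Of all genes, 65.6% were called between the wild types, against 8.84% for the KO in H1299 and 2.14% in A549. Between H1299 WT and A549 WT, 21 of the 30 genes were called, 8 higher and 13 lower in H1299, against 65.6% of 22635 genes tested (31.8% higher, 33.7% lower). At an unadjusted p under 0.05 there were 22 of the 30, against 68.7% of all genes, and the libraries did not overlap for 22, against 67.9%. Of the sterol genes 5 were higher and 9 lower in H1299, and of the fatty acid genes 3 were higher and 4 lower. At least 2-fold differences were found for 9 genes, of which 8 were lower in H1299 (HMGCS1, SQLE, MSMO1, NSDHL, STARD4, ACLY, FADS1 and FADS2) and 1, LSS, was higher. The share of all genes at this 2-fold rule was not counted, so the split has no background and is a description only. The counts of the lines stand in separate tables with the same genes. Line cannot be told apart from anything else that differed between those sets of cells, such as the number seeded.

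FADS2, which starts the desaturation of polyunsaturated fatty acids, differed most. It had 12.3, 16.2 and 13.7 CPM in H1299 WT, against 455, 444 and 562 CPM in A549 WT, a log2 difference of -5.11 (SE 0.21, adjusted p = 4.76e-10, edgeR). Its head-to-head neighbour FADS1 had 132, 131 and 130 CPM in H1299 WT, against 434, 517 and 683 CPM in A549 WT (-2.05, SE 0.16, adjusted p = 1.22e-07). These neighbours on 11q share 165 exon bases on opposite strands.

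Transcripts of ACLY and HMGCS1 were also lower in H1299 WT. ACLY had 261, 251 and 253 CPM in H1299 WT, against 742, 952 and 1050 CPM in A549 WT (-1.84, SE 0.12, adjusted p = 2.02e-08). HMGCS1 had 49.8, 42.5 and 41.8 CPM in H1299 WT, against 174, 175 and 204 CPM in A549 WT (-2.04, SE 0.16, adjusted p = 1.38e-07). The groups were far apart for both. STARD4 was lower by 2.38 (SE 0.59, adjusted p = 0.00292), SQLE by 1.15, NSDHL by 1.13 and MSMO1 by 1.10 on the log2 scale.

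LSS and FASN went the other way. LSS had 103, 96.7 and 92.0 CPM in H1299 WT, against 26.8, 34.6 and 36.8 CPM in A549 WT (1.57, SE 0.15, adjusted p = 1.28e-06). FASN had 292, 302 and 307 CPM in H1299 WT, against 135, 205 and 167 CPM in A549 WT (0.83, SE 0.16, adjusted p = 5.03e-04). The regulators INSIG1, SREBF2 and SREBF1 were slightly higher in H1299 WT. INSIG1 at 0.61 (adjusted p = 0.0270) and SREBF2 at 0.36 (0.0223) were called, and SREBF1 at 0.37 (0.0535) was not. INSIG1 missed the threshold without A549 WT 1, A549 WT 2 or H1299 WT 1, and SREBF2 without A549 WT 1 or H1299 WT 1. FDPS missed it without H1299 WT 1, and SC5D without A549 WT 1, A549 WT 2, H1299 WT 1 or H1299 WT 3. Lower in H1299 WT by smaller amounts were DHCR7, EBP, HSD17B7, ACACA and FDFT1 (-0.99 to -0.53), and higher were SC5D, ACSS2, ELOVL5 and FDPS (0.49 to 0.56).

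Ordered by CPM per kilobase of exon, SCD was highest of the 30 in both wild types, at 227 ± 35.5 in H1299 WT and 311 ± 114 in A549 WT (SD, n = 3). The length is the union of all annotated exons of a gene. It equals the longest transcript for SCD (5362 bases) but exceeds it for others, as for FADS2 (11026 against 5073 bases). The order thus depends on this choice of length, and an order by transcript length was not made. In H1299 WT ELOVL5 (63.6 ± 3.56) and FDPS (63.4 ± 11.8) followed, then ACLY (48.9 ± 0.995), FASN (32.1 ± 0.802) and CYP51A1 (29.3 ± 2.03), and STARD4 was lowest at 0.614 ± 0.459. In A549 WT ACLY was second at 175 ± 30.2, its libraries overlapping those of SCD, followed by FADS1 (53.2 ± 12.4), FDPS (45.1 ± 6.26), ELOVL5 (44.9 ± 5.85) and FADS2 (44.2 ± 5.91), and AACS was lowest at 1.46 ± 0.155. FADS2 thus ranked sixth in A549 WT and was next to last in H1299 WT, at 1.28 ± 0.176. Neighbours in the order overlapped in their libraries in 19 of 29 pairs in H1299 WT and in 26 of 29 pairs in A549 WT. Both transcription factors were of middling level, SREBF1 at 24.4 ± 0.494 and SREBF2 at 18.3 ± 0.528 in H1299 WT, and 18.9 ± 3.06 and 14.3 ± 1.54 in A549 WT.

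**Figure D5:**
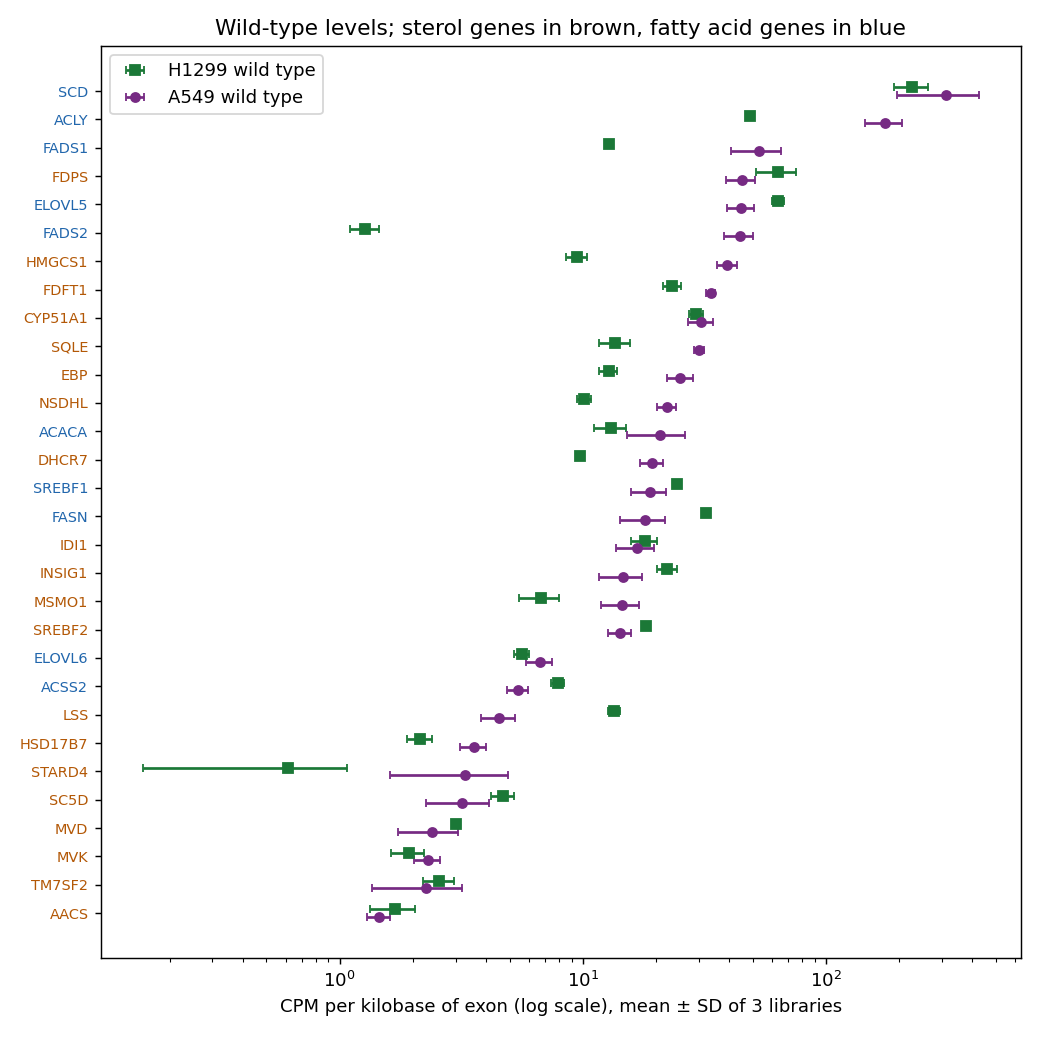
Level of each of the 30 genes in CPM per kilobase of exon on a log scale (mean and SD of 3 libraries) in H1299 WT (squares) and A549 WT (circles), ordered by the A549 level. FADS2 is at 1.28 in H1299 and 44.2 in A549, and LSS at 13.4 in H1299 and 4.52 in A549.

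The neighbouring genes of these pathways were counted in 4 further lists. Among other genes of sterol synthesis and uptake, 2 of 10 tested fell in H1299 KO and 0 rose, where 4.18% of all genes fell and 4.66% rose. Among the fallen was PMVK, phosphomevalonate kinase, which fell by 0.44 on the log2 scale (edgeR adjusted p = 0.0369). It lies on 1q and stood at -0.14 after centring within arms (adjusted p = 0.351).

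Among 18 genes of SREBP control and sterol efflux, 2 rose and 3 fell in H1299 KO, against 4.66% and 4.18% of all genes. The risen ones were FBXW7, a ubiquitin ligase subunit that marks nuclear SREBPs (0.57, adjusted p = 0.0199), and RNF139, a ligase of the endoplasmic reticulum (0.49, 0.00511). They lie on 4q and 8q, and centring within arms left 0.16 (0.412) and 0.24 (0.0673). MBTPS1, the site-1 protease, fell by 0.47 (0.0296) and stood at -0.33 (0.174) after centring.

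The cholesterol exporters ABCA1 and ABCG1, both targets of the sterol-sensing LXR receptors, fell in H1299 KO, with log2 fold changes of -0.49 (adjusted p = 0.0244) and -2.45 (SE 0.51, 0.0208). ABCA1 had 43.7, 53.3 and 51.2 CPM in H1299 KO, against 63.9, 79.4 and 64.7 CPM in H1299 WT. ABCG1 was low, at 0.324, 0.165 and 0.785 CPM in H1299 KO, against 3.34, 2.75 and 1.07 CPM in H1299 WT, which is 39 counts against 221. Both held after centring within arms, at -0.47 (0.0255) and -2.46 (0.0255).

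The isoprenoid branches had 2 of 9 genes risen in H1299 KO and 0 fallen, against 4.66% and 4.18% of all genes. NUS1, a subunit of the dolichol-making prenyltransferase, rose by 0.50 (adjusted p = 0.0189) and PDSS2, which makes the side chain of coenzyme Q, by 0.40 (0.0239). Both lie on 6q, where the median of the arm was 0.22, and after centring they stood at 0.28 (0.0590) and 0.19 (0.133).

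Of 26 other fatty acid and glycerolipid genes tested in H1299 KO, 3 rose and 1 fell, against 4.66% and 4.18% of all genes. ELOVL4, an elongase of very long chains, had 3.57, 3.71 and 4.68 CPM in H1299 KO, against 0.926, 0.545 and 0.400 CPM in H1299 WT (log2 fold change 2.65, SE 0.27, adjusted p = 0.00170). ELOVL2, an elongase of polyunsaturated chains, had 121, 134 and 99.3 CPM in H1299 KO, against 79.4, 78.8 and 80.5 CPM in H1299 WT (0.57, SE 0.11, 0.0148). Both were apart between the genotypes and were called after centring within arms, at 2.43 (0.00135) and 0.61 (0.00269). ACSL1, an acyl-CoA synthetase on 4q, rose by 0.55 (0.0159) and stood at 0.14 (0.338) after centring. TECR, the reductase that closes each elongation cycle, fell by 0.38 (0.0208) and stood at -0.27 (0.0270).

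In A549 KO, edgeR called 0 genes in each of these 4 lists. At an unadjusted p under 0.05 there were 2 of 11 other sterol genes, 2 of 18 SREBP control and efflux genes, 0 of 9 isoprenoid genes and 7 of 27 other fatty acid genes, against 19.1% of all genes. DESeq2 called 1 higher in the first list and 2 lower in the last, against 7.99% of all genes called by it in either direction. With limma-voom 0 were called in each list, against 1.46% of all genes. The difference between lines was called for RNF139, at 0.70 (adjusted p = 0.0244), and for ELOVL2, at 1.09 (0.0384). After centring within arms RNF139 stood at 0.20 (0.520) and ELOVL2 at 1.11 (0.0469). ABCG1, at -2.18 (0.0591), and ELOVL4, at 2.13 (0.0577), missed the threshold in this test.

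Between the wild types, other sterol genes were split, with 4 of 11 higher and 4 lower in H1299 WT, near the 31.8% and 33.7% of all genes. NPC1, a lysosomal cholesterol exporter, and SCARB1, a lipoprotein receptor, were lower by 1.39 and 1.15 on the log2 scale, whereas ACAT2, which makes acetoacetyl-CoA, was higher by 1.12. The largest adjusted p of these was 1.86e-04 (NPC1).

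SREBP control and efflux genes had 7 of 18 higher and 7 lower in H1299 WT, near the 31.8% and 33.7% of all genes. MYLIP, a ubiquitin ligase (1.21), UBE2G2, a ubiquitin-conjugating enzyme (1.12), and NFYC, an NF-Y subunit (0.86), were higher, and ABCG1 (-1.76), the LXR gene NR1H3 (-1.41) and MBTPS2, the site-2 protease (-1.15), were lower. Against the same shares, isoprenoid genes had 3 of 9 higher, NUS1 (1.49), DHDDS, its partner (0.94), and PDSS2 (0.62), and 4 lower, with GGPS1, the geranylgeranyl diphosphate synthase (-1.16), COQ2 of coenzyme Q synthesis (-1.12) and FNTB, a farnesyltransferase subunit (-1.02), lowest.

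Of 28 other fatty acid genes tested, 4 were higher and 14 lower in H1299 WT, against 31.8% higher and 33.7% lower over all genes. PPARG, a lipid-sensing nuclear receptor, had 2 counts in H1299 WT and 2183 in A549 WT, a ratio of 1770 in favour of A549 (95% counting interval 489 to 14600). Log2 differences were -6.62 for the elongase ELOVL7, -3.38 for ME1, a source of NADPH, and -2.68 for MID1IP1, an activator of acetyl-CoA carboxylase. They were -2.20 for MLXIPL, the carbohydrate-sensing factor ChREBP, and -1.97 for HACD1, a dehydratase of the elongation cycle.

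Some counts are uncertain because 14 of the 30 genes share exon bases with another annotated gene, 13 of them on the opposite strand. CYP51A1 shares 1685 bases with AC000120.2 on its own strand, and their mean counts, each in the line where it was higher, were 3269 and 3255. SREBF1 shares 442 bases with RAI1, and STARD4 shares 124 with STARD4-AS1. Pseudogene copies exist for 6 genes, the most counted being SCDP1, with a mean count of 135 in the line where it was higher. AACSP1 had 96.5 by the same measure, where AACS had 368 to 1638 counts per library. HSD17B7P2 had 79.3, where HSD17B7 had 202 to 612. None of the 5 genes called in H1299 has such an overlap or copy, whereas AACS, called in the difference between lines, has a copy. What these copies add to the counts was not tested. The strand setting of the counting is not given in the sources used here.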

How the data were processed

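The values used are whole-number gene counts that the authors deposited, 59050 symbols for each line in 6 columns. RNA came from cells grown 48 h, and 1 µg went into a strand-marking poly-A library kit, per the labels' protocols. The submitters' processing notes name bcl2fastq 2.20.0.422 and the build GRCm38.p6, which is a mouse build, whereas the symbols are human. Aligner, annotation and strand setting are not given in the sources used here. Each of the 37 mitochondrial genes had 0 counts.

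In R 4.3.3, genes were filtered with filterByExpr (minimum count 10), scaled with TMM and tested with the quasi-likelihood test of edgeR 4.0.16, KO against WT within each line and, for differences between lines, over all 12 libraries. Fold changes are log2, and SEs come from the F statistic. With 3 against 3 libraries an exact permutation test cannot reach the threshold, so p-values rest on the model. CPM use TMM library sizes of the joint table. Coordinates, GC content and lengths are from GENCODE 29 (GRCh38), where 95.2% of symbols were found once. Arms were split at approximate GRCh38 centromere positions entered by hand, and arm medians are over expressed genes. GC and length correction used a loess curve (span 0.3) per library. Alternatives were RLE factors, no scaling, 2 other filters (1 CPM in 3 libraries, or none), DESeq2 1.42.0, voom in limma 3.58.1, centring within arms, GC and length correction, a single fit of all 12 libraries, an adjusted p under 0.01, medians without AACS, ACLY and ACSS2, and each library left out. For the 4 pathway lists DESeq2, voom, centring and GC and length correction were run, and no library was left out. No 2 libraries agreed within sampling noise. The interval given for a ratio of counts covers counting error only. The scripts were tested on simulated data.

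The members, pathway lists and tests were chosen with earlier results of these data known. Named are all 30 members, the called members and SREBF1, SREBF2 and INSIG1 with each library's value, and in each list and comparison at most 6 called genes with the largest change, except that some list genes are not reported here. Library values of HMGCS1, STARD4 and HSD17B7, of members compared between the wild types and of genes in the lists, and the differences between lines for ABCG1 and ELOVL4, were picked after they were seen.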

Additional observations from a re-analysis of the deposited data

Results flagged for a closer look

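For 4 genes among the 30 members, the pathway lists and PSME4, the effect of the knockout differed between the lines by the interaction test over all 12 libraries (edgeR quasi-likelihood test, H1299 effect minus A549 effect). Over all genes, 3.48% of 22635 were called in this test. AACS differed by -0.925 on the log2 scale (adjusted p = 0.0346), with effects of -0.30 in H1299 and 0.61 in A549, and at -0.82 after centring within chromosome arms (0.0567) it missed the threshold. RNF139 differed by 0.701 (adjusted p = 0.0244) and lies on 8q, whose median log2 fold change was 0.26 in H1299 and -0.27 in A549, and after centring within arms it stood at 0.20 (0.520). ELOVL2 differed by 1.086 (adjusted p = 0.0384), with 118 ± 17.6 CPM in H1299 KO and 79.6 ± 0.894 in H1299 WT, and with 23.7 ± 4.76 CPM in A549 KO and 33.9 ± 9.21 in A549 WT (SD, n = 3 each). PSME4, the edited gene, differed by 0.907 (adjusted p = 0.0277), the fall being smaller in H1299. Groups of 3 libraries were too small for an outlier test.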

How the results depend on the processing

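Over the named genes, 609 results kept their direction and their side of the threshold, 47 lost the threshold, 5 gained it and 4 turned their sign, all 4 at values near 0: in H1299, SREBF2 at 0.025 after correction for GC content and length and INSIG1 at 0.018 without WT replicate 1 and 0.035 without KO replicate 1 (lowest -0.157 with 1 library left out), and in the difference between lines SREBF2 at -0.036 without A549 KO replicate 2 (highest 0.215 with 1 library left out). These counts pool all 4 comparisons, that between the wild types included, and regulators that had no call to lose. For the genes called in H1299 KO, the call stood in 15 of 15 alternatives for ELOVL6 and 10 for MSMO1. It stood in 9 for SQLE, 7 for MVD and 7 for ACSS2. For the difference between lines, AACS was called in 11 of 20. In A549 KO the number of the 30 genes called was 0 (with 2.14% of all genes called). It was 1 (AACS) with no filter (3.6%), with DESeq2 (7.99%) and in the fit of all 12 libraries (7.83%). In H1299 KO it was 5 (with 8.84% of all genes called), against 12 with no filter (8.85%), 8 with DESeq2 (12.8%) and 2 after centring within arms (6.28%). It was 1 in the fit of all 12 libraries (2.47%), 1 at an adjusted p under 0.01 (1.6%), and 1 to 5 with 1 library left out (2.28% to 7.13%). For the difference between lines it was 1 (AACS, with 3.48% of all genes called). It was 2 (AACS and ELOVL6) with DESeq2 (8.54%) and 2, the same genes, after correction for GC content and length (6.17%). It was 0 after centring within arms (1.96%), 0 at an adjusted p under 0.01 (0.619%), and 0 to 2 with 1 library left out (1.33% to 5.83%). Between the wild types it was 21 (65.6%), and 17 to 22 with 1 library left out (59.7% to 65%). Medians moved by more than the spread between libraries in these cases: the sterol median of the difference was 0.018 after centring within arms, the fatty acid median in A549 ran between -0.12 without KO replicate 3 and 0.141 without WT replicate 3, that of the difference between -0.222 without A549 WT replicate 3 and 0.056 without A549 WT replicate 1, and that between the wild types was -0.551 without A549 WT replicate 1 and -0.146 without A549 WT replicate 3. Apart from the fewer samples in fits with a library left out, the causes were not tested. No paired analysis was possible because the labels give no replicate numbers shared between groups. Over all genes, the number called in A549 KO was 430, against 1275 with no filter, 1543 with DESeq2, 236 after centring within arms, 956 after GC and length correction, 1772 in the fit of all 12 libraries, 8 at an adjusted p under 0.01 and 10 (without WT replicate 2) to 1016 (without WT replicate 3) with 1 library left out. In H1299 KO it was 1786, against 3077 with no filter, 2339 with DESeq2, 1269 after centring within arms and 559 in the fit of all 12 libraries. It was 323 at an adjusted p under 0.01 and 471 (without KO replicate 3) to 1469 (without WT replicate 1) with 1 library left out. For the difference it was 788, against 1239 with no filter, 1706 with DESeq2, 444 after centring within arms, 1396 after GC and length correction, 140 at an adjusted p under 0.01 and 310 to 1359 with 1 library left out. Depth limits the low genes most: ABCG1 rests on 39 counts in H1299 KO and ELOVL4 on 56 in H1299 WT.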
